A study of Mus musculus with 24 samples.

Results

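Cyp3a57, Slc35f3, Chst8, Reg3g, Deptor, Nrbp2, Lonrf1, Zbtb8a and Chml were each higher in mutant than in wild-type virgin mice, and they were followed here from the virgin stage through pregnancy into lactation. The 9 genes were selected on that difference between mutant and wild-type virgin arrays. They are 9 of 22180 genes with a single gene symbol on the array, and all 9 are among the 15234 genes kept for testing. They are represented by 10 of 41345 probe sets, since Deptor has a second one, and the probe set of highest mean over the 24 arrays was used for each gene. Because the virgin arrays chose the genes, every value in virgins and every step out of the virgin stage is given as a description without a test. Genes picked for a large difference at 1 stage will in part show smaller ones elsewhere for that reason alone. The tests use the other 18 arrays.

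The series concerns BRCA1, a tumour suppressor of homologous recombination repair, and its link to oestrogen signalling in pregnancy. RNA was measured on 24 single-colour arrays, 12 from wild-type and 12 from mutant mice, in 8 groups of 3. Each genotype was sampled at the stages coded V (virgin), dp12, dp18 and Lac10, and values are log2 intensities. Wild-type and mutant mice shared a mixed background of 80% FVB, 10% 129SVEV and 10% Black Swiss. The mutant is labelled Br-M in the titles, and neither its allele, nor a promoter driving a recombinase, nor the age of the mice or the tissue is given. The prefixes dp and Lac are taken as days into pregnancy and lactation, while the design text attaches months to the numbers, so the time behind a code is not settled. Titles carry array numbers, mostly a body weight, and at dp18 and Lac10 mostly a colour word (white, brown or golden). The colour differs within the wild-type dp18, wild-type Lac10 and mutant Lac10 groups. Each mutant title also holds a number of its own. No label calls each array a separate animal, so a p-value here reflects array-to-array spread only, which may be technical. In such bulk RNA, fewer cells of a type and less RNA per cell cannot be told apart.

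Several arrays stood apart. Each array's correlation with the others had a median of at most 0.968, which was lowest in mutant Lac10 replicate 2 (0.799), wild-type dp18 replicate 1 (0.837) and mutant dp18 replicate 1 (0.863). It was 0.907 to 0.920 in wild-type virgins against 0.953 to 0.964 in mutant virgins. The casein gene Csn1s2b was at 6.47 on the array labelled wild-type Lac10 replicate 1, against 11.47 and 11.24 on the other two of its group, and at 10.37 on the array labelled mutant dp18 replicate 2, against 6.30 and 5.93. By this gene these 2 arrays went against their stage labels. The milk protein gene Lalba also set 1 array apart in each virgin group, mutant virgin replicate 3 at 11.12 against 7.31 and 6.55, and wild-type virgin replicate 2 at 9.49 against 5.24 and 6.34, while Csn1s2b was at 3.52 to 3.94 on all 6 virgin arrays. Lalba was 7.39 to 10.39 over the dp12 arrays and 10.22 to 11.82 over the dp18 arrays. Luminal epithelial keratin, claudin and adhesion genes and milk protein genes were measured on every array. Every probe set has a value above 0 on every array (lowest 1.98), so a value alone does not show that a gene was expressed.

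The 9 genes belong to no single pathway. Cyp3a57 belongs to the cytochrome P450 monooxygenases that oxidise steroids and drugs, a family best known from liver and gut. Chst8 encodes a Golgi enzyme that adds sulfate to N-acetylgalactosamine on glycoprotein sugar chains such as those of pituitary hormones, and Slc35f3 a solute carrier linked to thiamine uptake. Reg3g is a secreted lectin that kills Gram-positive bacteria at mucosal surfaces. DEPTOR binds the mTOR kinase and inhibits it in both of its complexes, so it sits on the route by which nutrients and growth factors drive protein synthesis. Nrbp2 encodes a pseudokinase, Lonrf1 a RING finger protein with a LON domain, and Zbtb8a a zinc finger protein with a BTB domain. Chml encodes a Rab escort protein, which presents newly made Rab GTPases to the enzyme that attaches their lipid anchor.

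Promoter windows were matched by symbol in a RefSeq table (build GRCm38.p6) for 6 of the 9 genes, with 2 start sites for Slc35f3. The windows of 6 start sites are shown because they cover 4 genes whose highest arrays were all from mutant virgins (Cyp3a57, Chst8, Slc35f3, Reg3g) and 2 whose later arrays reached into the range of both virgin groups (Zbtb8a, Chml). Each runs 5′ to 3′ over the 250 bases before the start site, and capitals mark matches, on either strand, to AGAACA (a recognition sequence of progesterone and glucocorticoid receptors), TATAAA (the TATA box) or CCAAT.
Cyp3a57 (chr5:145345019-145345268, plus strand): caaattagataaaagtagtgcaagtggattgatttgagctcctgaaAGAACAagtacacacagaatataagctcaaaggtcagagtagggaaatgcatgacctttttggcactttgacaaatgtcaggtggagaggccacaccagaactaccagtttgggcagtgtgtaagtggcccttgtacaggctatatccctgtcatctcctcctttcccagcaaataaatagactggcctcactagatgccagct
Chst8 (chr7:34812712-34812961, minus strand): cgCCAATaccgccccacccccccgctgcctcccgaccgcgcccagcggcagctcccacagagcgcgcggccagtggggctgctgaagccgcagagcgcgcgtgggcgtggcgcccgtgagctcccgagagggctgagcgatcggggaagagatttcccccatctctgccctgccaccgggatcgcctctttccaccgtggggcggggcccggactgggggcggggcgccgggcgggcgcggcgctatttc
Slc35f3 (chr8:126138875-126139124, plus strand): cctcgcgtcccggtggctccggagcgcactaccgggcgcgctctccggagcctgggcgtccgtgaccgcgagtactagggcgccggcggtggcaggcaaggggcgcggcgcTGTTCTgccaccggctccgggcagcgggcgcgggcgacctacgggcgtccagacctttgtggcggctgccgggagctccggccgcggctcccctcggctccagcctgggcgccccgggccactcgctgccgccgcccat
Reg3g (chr6:78468875-78469124, minus strand): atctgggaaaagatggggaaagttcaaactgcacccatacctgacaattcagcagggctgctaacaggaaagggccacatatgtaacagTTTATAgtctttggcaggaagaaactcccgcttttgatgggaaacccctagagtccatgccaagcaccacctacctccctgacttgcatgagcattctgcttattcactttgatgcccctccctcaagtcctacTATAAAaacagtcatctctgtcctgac
Zbtb8a (chr4:129378029-129378278, minus strand): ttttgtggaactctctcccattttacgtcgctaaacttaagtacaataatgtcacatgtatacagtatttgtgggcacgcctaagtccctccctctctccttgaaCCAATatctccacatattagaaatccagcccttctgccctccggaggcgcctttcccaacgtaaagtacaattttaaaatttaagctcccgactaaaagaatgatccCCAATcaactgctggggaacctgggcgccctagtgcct
Chml (chr1:175688354-175688603, minus strand): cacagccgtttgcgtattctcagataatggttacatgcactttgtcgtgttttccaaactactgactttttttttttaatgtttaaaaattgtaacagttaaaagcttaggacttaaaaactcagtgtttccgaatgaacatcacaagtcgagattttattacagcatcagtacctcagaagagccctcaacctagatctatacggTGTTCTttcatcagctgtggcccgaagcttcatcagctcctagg
AGAACA, or its reverse complement, was found 204 bases before the start in Cyp3a57, 139 bases before the first start of Slc35f3 and 44 bases before the start in Chml, and 16.1% of 32851 RefSeq windows of this length hold it. TATAAA was found in Reg3g, 27 and 161 bases before the start (12.4% of windows), and CCAAT in Chst8, 248 bases before, and in Zbtb8a, 38 and 145 bases before (33.8% of windows). The oestrogen response element, the STAT site TTCNNNGAA and the E-box CACGTG were in none of the 7 windows, and in 0.0639%, 7.02% and 6.02% of all windows. The share of G and C was 78.4% and 75.6% in Slc35f3 and Chst8, and 38.8% to 47.2% in Chml, Cyp3a57, Zbtb8a and Reg3g.

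In virgins the mutant means exceeded the wild-type means by 1.15 to 2.11 on the log2 scale, which is 2.22-fold for Chml and 4.30-fold for Cyp3a57. The differences ranked 4 to 214 among all 15234 genes, and for all 9 genes every mutant virgin array lay above every wild-type one. That was so for 25.5% of all genes, and here it follows from how the genes were chosen. The median over all genes was 0.20 in the same contrast. Without the virgin array of highest Lalba in each genotype the 9 differences were 1.06 to 1.85, with Chml at 1.33 and Deptor at 1.17. Centring each array on a housekeeping list moved that median by -0.16, and array median centring shifted it by 0.02.

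**Figure D1:**
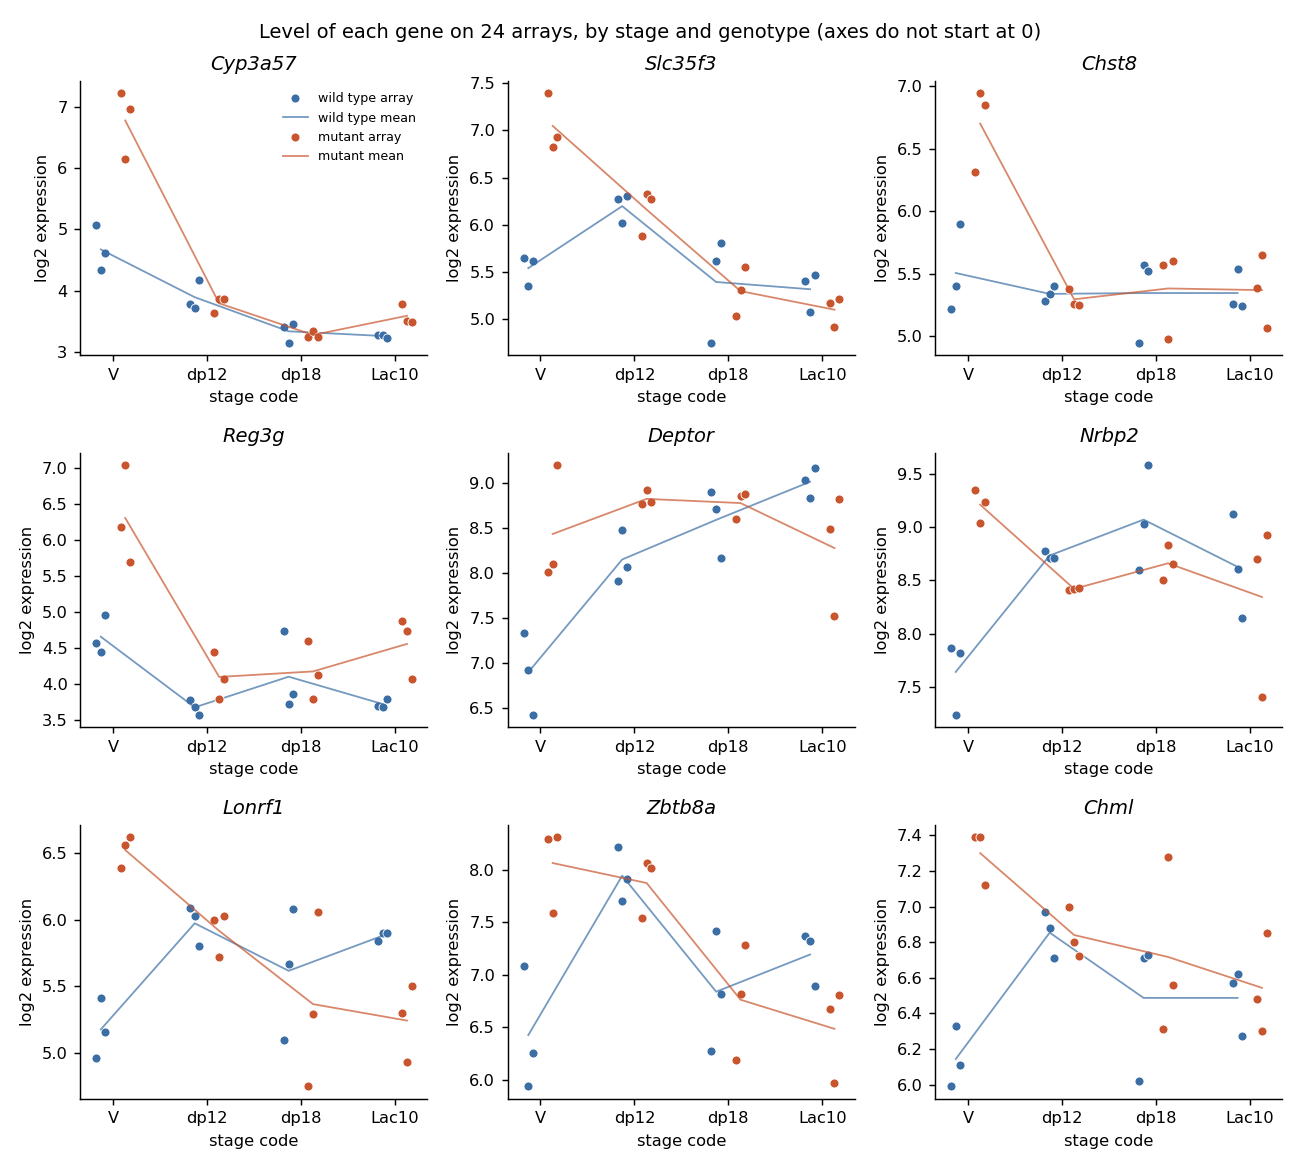
Log2 expression of the 9 genes (vertical axes, which do not start at 0) against stage code, with 1 point per array, 3 arrays per group, and lines through the group means. Cyp3a57, Chst8, Slc35f3, Reg3g and Lonrf1 have their highest 3 arrays in mutant virgins, whereas Deptor has its lowest 3 in wild-type virgins.

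Where the virgin arrays stood against the later ones differed between the genes. In 5 genes, Cyp3a57, Chst8, Slc35f3, Reg3g and Lonrf1, all 3 mutant virgin arrays lay above the other 21, which was so for 1.66% of all genes. In Deptor all 3 wild-type virgin arrays lay below the other 21 instead, which was so for 0.328% of all genes. Zbtb8a, Nrbp2 and Chml lay between these patterns, with 5, 2 and 1 of the 18 later arrays at or above the lowest mutant virgin array. These counts share the virgin arrays that chose the genes and are descriptions.

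Cyp3a57 was highest in mutant virgins. Its levels were 7.22, 6.15 and 6.97 in mutant virgins and 5.07, 4.33 and 4.62 in wild-type virgins. At dp12 they were 3.64, 3.87 and 3.87 in mutants and 3.79, 3.71 and 4.18 in wild type. The mutant mean was thus 2.98 lower at dp12 than in virgins and the wild-type mean 0.78 lower, and the genotypes overlapped. From dp18 on, every array lay between 3.15 and 3.78. Cyp3a57 was above the median of its own array on the 3 mutant virgin arrays only, and it passed the filter on dim genes through them, so all 18 later values lie below the medians of their arrays.

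Chst8 was at 6.31, 6.94 and 6.85 in mutant virgins and at 5.22, 5.40 and 5.90 in wild-type virgins. All 18 later arrays lay within 4.95 to 5.65, a range that lies inside or below the wild-type virgin values. The mutant mean was 1.40 lower at dp12 than in virgins and the wild-type mean 0.17 lower. Outside mutant virgins the course of Chst8 was flat, with wild-type means of 5.34, 5.35 and 5.35 at dp12, dp18 and Lac10. These levels lie near the array medians (5.31 to 5.62), and Chst8 was above its array median on 10 of the 18 later arrays. A flat course at such levels can hide small changes.

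Slc35f3 was at 7.39, 6.82 and 6.93 in mutant virgins and at 5.65, 5.35 and 5.62 in wild-type virgins. At dp12 it was at 5.88, 6.33 and 6.27 in mutants and 6.27, 6.02 and 6.30 in wild type. Both genotypes thus met at a level between the virgin groups, the mutant mean 0.89 lower and the wild-type mean 0.66 higher than in virgins.

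Reg3g was at 6.18, 7.04 and 5.70 in mutant virgins and at 4.56, 4.44 and 4.96 in wild-type virgins. At dp12 it was at 4.44, 3.78 and 4.06 in mutants and at 3.77, 3.67 and 3.57 in wild type, so both means were lower than in virgins, by 2.21 and 0.98, and the genotypes still did not overlap. Like Cyp3a57, Reg3g was above the array median on the 3 mutant virgin arrays only.

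In Deptor the wild-type level came to that of mutant virgins. Its levels were 7.34, 6.93 and 6.43 in wild-type virgins and 8.01, 8.10 and 9.20 in mutant virgins. In wild type they were 7.91, 8.48 and 8.07 at dp12, 8.90, 8.71 and 8.17 at dp18 and 9.04, 8.84 and 9.17 at Lac10. In mutants they were 8.77, 8.92 and 8.79 at dp12, 8.60, 8.86 and 8.88 at dp18 and 8.49, 7.53 and 8.82 at Lac10. The wild-type mean was 1.25 higher at dp12 than in virgins and the mutant mean 0.39 higher, and 16 of the 18 later arrays lay at or above the lowest mutant virgin array. The second Deptor probe set had a virgin difference of 1.42 against 1.53 for the first.

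Nrbp2 was at 7.86, 7.24 and 7.82 in wild-type virgins and at 9.35, 9.04 and 9.24 in mutant virgins. At dp12 the wild-type arrays were at 8.78, 8.71 and 8.71 and the mutant arrays at 8.41, 8.42 and 8.43. The order of the genotypes was therefore turned at dp12, with no overlap. The wild-type mean was 1.10 higher and the mutant mean 0.79 lower than in virgins.

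Lonrf1 and Chml also met from both sides, and Zbtb8a mostly from the wild-type side. Lonrf1 was at 4.96, 5.41 and 5.16 in wild-type and 6.39, 6.56 and 6.62 in mutant virgins, and at dp12 at 6.09, 6.03 and 5.80 against 6.00, 5.72 and 6.03. Zbtb8a was at 7.08, 5.94 and 6.26 in wild-type and 8.29, 7.59 and 8.31 in mutant virgins, and at dp12 at 8.22, 7.70 and 7.91 against 7.54, 8.06 and 8.02. Chml was at 5.99, 6.33 and 6.11 in wild-type and 7.39, 7.39 and 7.12 in mutant virgins, and at dp12 at 6.97, 6.88 and 6.71 against 7.00, 6.80 and 6.72. In all 3 genes the dp12 groups overlapped. For Zbtb8a the wild-type mean was 1.51 higher and the mutant mean 0.19 lower than in virgins, so 88.6% of the narrowing came from the wild-type side. That share was 57.0% for Lonrf1, 60.9% for Chml, 58.2% for Nrbp2 and 42.5% for Slc35f3. In Cyp3a57, Chst8 and Reg3g the wild-type mean was lower at dp12 than in virgins, so the narrowing lay wholly in the mutants. For Deptor the share was 146%, since its mutant mean was higher at dp12 too. All these shares are descriptions without an error, from means of 3 arrays. Choosing genes on a high virgin difference favours low wild-type and high mutant virgin means. The shares therefore cannot show which genotype changed.

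**Figure D2:**
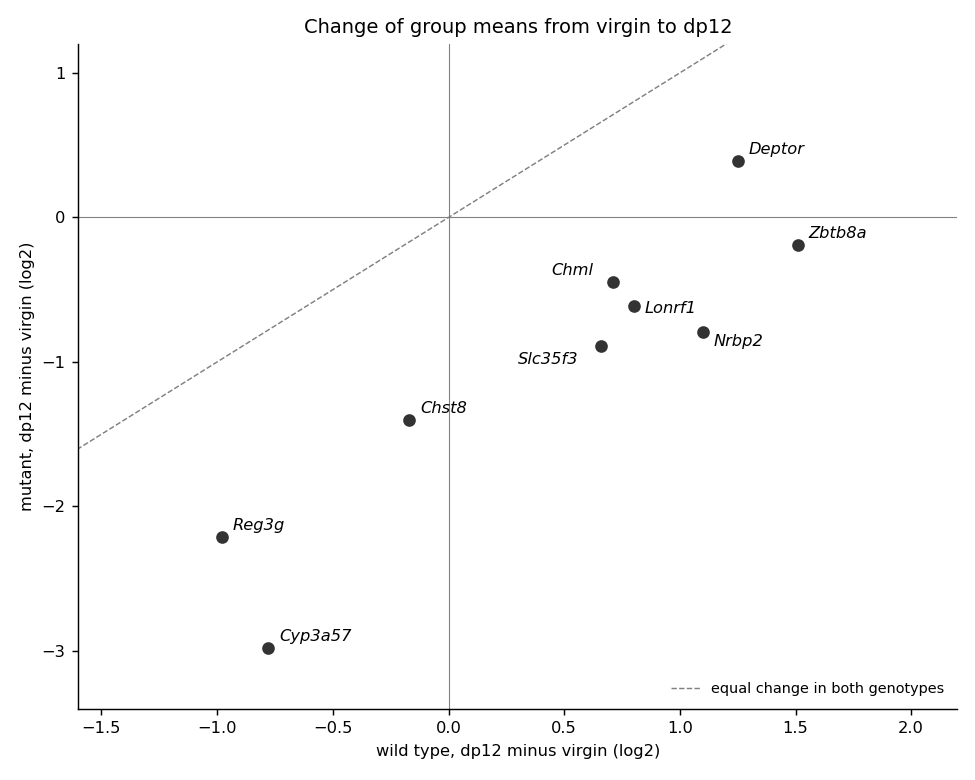
Difference of group means between dp12 and virgin in wild type (horizontal axis, log2) and in mutants (vertical axis, log2), 1 point per gene, 3 arrays per group mean, no error shown because the step was not tested. The dashed line marks equal change. All 9 genes lie below it, which is largely set by their choice for a high virgin difference. Cyp3a57 is lowest (-2.98 in mutants), Zbtb8a furthest right (1.51 in wild type) and Deptor the 1 gene above 0 in mutants (0.39).

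Epithelial marker genes differed between the virgin groups as well. The mean of the 10 measured hormone-sensing luminal markers (of 13 listed) was 7.40 to 8.20 on mutant and 6.74 to 7.09 on wild-type virgin arrays, and 9 of the 10 had the higher mean in mutants. Pgr, the progesterone receptor gene, was 1.81 higher, with Prom1 at 0.86 and Greb1 at 0.55, all chosen for naming after their values were seen. These 3 of 10 were without overlap with mutants higher, as were 2 of the 10 luminal epithelium markers and 25.5% of all genes. The 10 luminal epithelium markers averaged 9.80 to 10.22 on mutant and 9.05 to 9.69 on wild-type virgin arrays, and all 10 had the higher mean in mutants. Most of all genes kept also had the higher mean in mutant virgins, since their median difference was 0.20. The list medians were 0.85 for the hormone-sensing and 0.48 for the luminal epithelium markers. Over all later groups the hormone-sensing mean lay between 5.87 and 6.87. The part of epithelial content or of hormone-sensing cells in the 9 virgin differences was not tested.

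Other cell type lists overlapped between the virgin groups, with medians of 0.31 for 7 basal and myoepithelial, -0.19 for 8 milk protein, -0.14 for 9 adipocyte, 0.10 for 8 lymphocyte, -0.46 for 7 macrophage and neutrophil, -0.13 for 6 endothelial and -0.60 for 4 skeletal muscle genes. Of these genes 6, 3, 4, 4, 0, 0 and 0 had the higher mean in mutants. Wild-type virgin replicate 2 had the highest lymphocyte, macrophage, endothelial and muscle list means of its group (7.88, 7.70, 9.67 and 6.93). Replicate 1 was at 5.41, 5.61, 7.92 and 5.38, and replicate 3 at 5.28, 6.95, 8.62 and 5.46. The luminal epithelium mean of replicate 2 was 9.05, against 9.54 and 9.69. The 3 measured salivary gland genes had a median of -0.56. Without overlap, 1 of them was higher and 2 were lower in mutants (25.5% and 8.64% of all genes). The mean of the 7 salivary gland genes on the array overlapped. The 7 keratinocyte genes on the array averaged 4.60 to 4.91 on mutant and 4.94 to 5.03 on wild-type virgin arrays, and the median of the 2 that passed the filter was -0.06. The 5 measured hepatocyte genes had a median of 0.53, and the mean of the 8 hepatocyte genes on the array was 5.60 to 6.07 on mutant against 5.53 to 5.73 on wild-type virgin arrays. It was 4.85 to 5.34 in every later group except mutant Lac10, where it was 5.80 to 5.85. The part of these genes in the virgin levels of Cyp3a57 and Reg3g was not tested.

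At dp12, dp18 and Lac10 the genotypes were compared with limma on the 18 later arrays, with Benjamini-Hochberg adjustment over 15234 genes. No member passed at any of these stages, nor any other gene (0% of 15234 at each). At an unadjusted p under 0.05 there were 203, 120 and 2248 genes at dp12, dp18 and Lac10 (1.33%, 0.788% and 14.8%), and 1, 0 and 4 of the 9 genes. The test that the 3 genotype differences are equal passed for no gene (0%), with 673 at an unadjusted p under 0.05 (4.42%). The count at Lac10 was 111 with wild-type Lac10 replicate 1 left out, 595 without mutant Lac10 replicate 3 and 1 without mutant Lac10 replicate 1, with 0 of the 9 genes in each case. The median difference over the 9 genes was -0.04, -0.06 and -0.22, against 0.00, 0.01 and -0.19 over all genes.

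**Figure D3:**
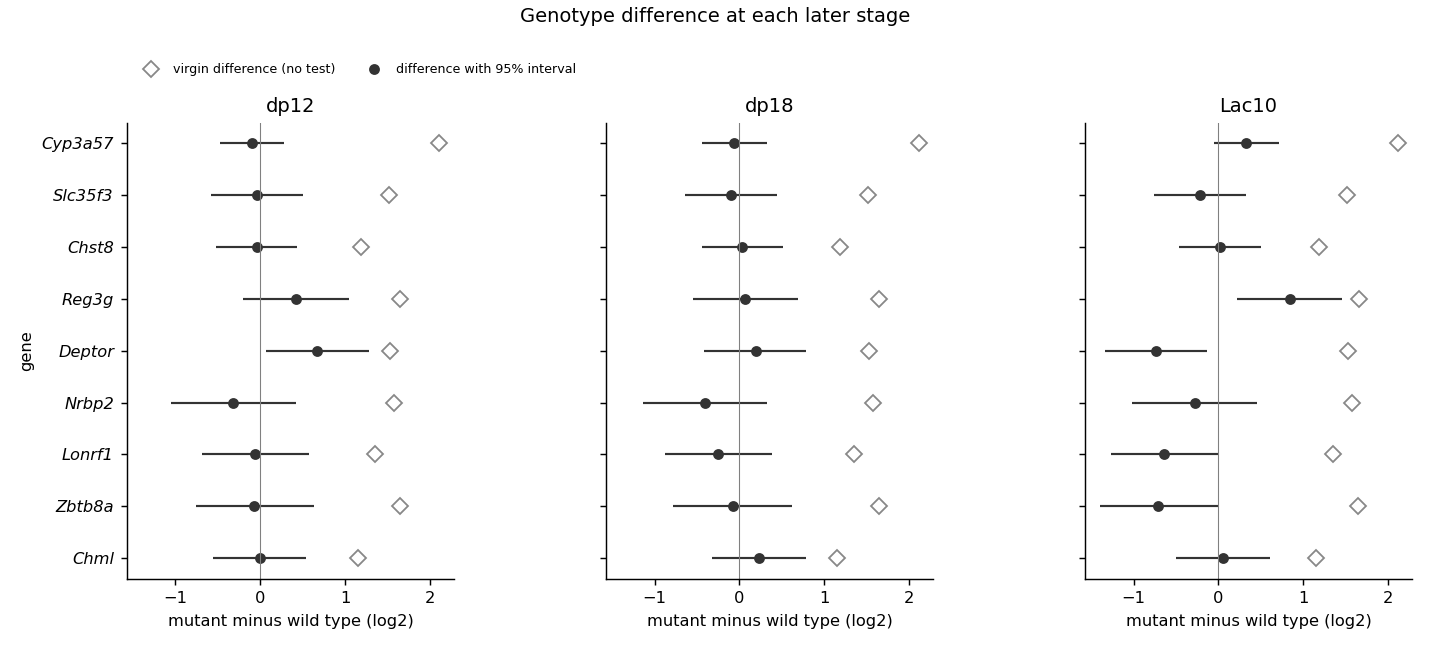
Mutant minus wild-type difference (log2, horizontal axes) of the 9 genes at dp12, dp18 and Lac10 with 95% intervals from limma, 3 arrays per group, beside the untested virgin difference as an open diamond. At dp18 all 9 intervals cover 0, and at Lac10 those of Reg3g (0.22 to 1.46), Deptor, Lonrf1 and Zbtb8a do not.

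For Chst8 and Chml the later differences were centred near 0. Averaged over dp12, dp18 and Lac10, Chst8 differed by 0.00 (SE 0.13, 95% interval -0.27 to 0.28) and Chml by 0.09 (SE 0.15, -0.23 to 0.41). Cyp3a57 differed by 0.06 (SE 0.10, -0.16 to 0.28) and Slc35f3 by -0.12 (SE 0.15, -0.43 to 0.19). Zbtb8a, Lonrf1 and Nrbp2 lay on the other side of 0, at -0.28, -0.32 and -0.34, with upper bounds of 0.12, 0.05 and 0.09. None of these passed (limma adjusted p from 0.900 to 0.997), and the upper bounds were 0.41 or less for all 7. Cyp3a57 lay below the median of every later array and Chst8 near it, so their narrow intervals describe dim signals.

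Reg3g means were higher in mutants at each later stage. It differed by 0.42 (SE 0.29) at dp12, 0.07 at dp18 and 0.84 (limma adjusted p = 0.223) at Lac10. The Lac10 arrays were at 4.87, 4.73 and 4.06 in mutants and at 3.69, 3.67 and 3.79 in wild type. The mutant arrays thus lay above all wild-type arrays at dp12 and Lac10, as did 6.69% and 3.24% of all genes. At dp18, 1 array of each genotype was high, mutant replicate 1 at 4.60 and wild-type replicate 1 at 4.73, and these are among the 3 arrays of lowest correlation. Averaged over the 3 stages Reg3g differed by 0.44 (SE 0.17, 95% interval 0.09 to 0.80), which did not pass in limma (adjusted p = 0.900), where 0% of genes passed and 4.37% had an unadjusted p under 0.05. Cyp3a57 was the other gene whose Lac10 arrays did not overlap with mutants higher, at 3.78, 3.50 and 3.49 against 3.27, 3.28 and 3.23 (difference 0.33, SE 0.18). Both genes were below the median of every later array, and the hepatocyte list of mutant Lac10 arrays (5.80 to 5.85) stood apart from that of wild-type Lac10 arrays (4.91 to 5.13). Its part in these differences was not tested. With housekeeping centring the Lac10 differences were 1.44 for Reg3g (limma adjusted p = 0.169) and 0.93 for Cyp3a57 (adjusted p = 0.165). With array weights Reg3g passed at 1.08 (limma adjusted p = 0.00353), as 1 of 3402 genes, against 0 in the main fit. The estimate of those weights did not reach its convergence tolerance. Reg3g was also in the tested set through the mutant virgin arrays alone, so this pass is not support for a difference.

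The Deptor differences at dp12 and Lac10 had opposite signs. At dp12 the mutant arrays all lay above the wild-type ones, with a difference of 0.67 (SE 0.29, 95% interval 0.07 to 1.28), and at Lac10 all below, at -0.74 (SE 0.29, -1.34 to -0.13). Neither passed in limma (adjusted p = 1 and 0.261), nor did the test that the 3 later genotype differences are equal (unadjusted p = 0.00957, adjusted p = 1). The second probe set gave 0.52 and -0.45. In wild type Deptor was 0.86 higher at Lac10 than at dp12 (SE 0.29, adjusted p = 0.245), with no overlap, as for 12.9% of all genes, while in mutants the value was -0.55 (SE 0.29). Without mutant Lac10 replicate 2 the Lac10 difference was -0.36, and with housekeeping centring, which moved the median of all genes at Lac10 by 0.60, it was -0.14.

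Lonrf1 and Zbtb8a were also lower on every mutant than on every wild-type Lac10 array, as were 12.4% of all genes. Lonrf1 was at 5.30, 4.93 and 5.50 in mutants and 5.84, 5.90 and 5.90 in wild type, a difference of -0.64 (SE 0.30, limma adjusted p = 0.334). Zbtb8a was at 6.68, 5.97 and 6.81 in mutants and 7.37, 7.32 and 6.89 in wild type, a difference of -0.71 (SE 0.33, limma adjusted p = 0.335). Neither passed, and both were close to 0 with housekeeping centring, at -0.04 and -0.11. The luminal marker mean was 9.92, 6.58 and 7.62 on the 3 mutant Lac10 arrays and 9.85, 8.52 and 8.80 on the wild-type ones. The part of epithelial content in these values was not tested.

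Nrbp2 was lower in mutants at dp12 by 0.32 on average (difference -0.32, SE 0.35), with tightly grouped arrays that did not overlap, as for 10.2% of all genes. The difference was -0.41 at dp18 and -0.28 at Lac10, both with overlap. The Lac10 value was set by mutant replicate 2 at 7.40, and it was 0.19 without that array. Chml overlapped between genotypes at each later stage, with the highest later array (7.28) on the array labelled mutant dp18 replicate 2. Its dp18 difference was 0.23 (SE 0.26) with that array and -0.05 without it. In RefSeq the gene bodies of 7 of the 9 genes overlap another gene (Opn3 for Chml, noncoding RNA genes or pseudogenes for Slc35f3, Chst8, Deptor, Nrbp2, Lonrf1 and Zbtb8a), and the files do not say where or on which strand the probes lie, so signal of the overlapping genes cannot be told apart. Cyp3a57 and Reg3g have no such neighbour.

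Within the later stages 2 of the 9 genes changed, and both fell in mutants from dp12 to Lac10. Zbtb8a fell by 1.39 (SE 0.33, limma adjusted p = 0.0389), from 7.54, 8.06 and 8.02 to 6.68, 5.97 and 6.81. Slc35f3 fell by 1.06 (SE 0.25, limma adjusted p = 0.0403), from 5.88, 6.33 and 6.27 to 5.17, 4.92 and 5.21. No arrays overlapped in either gene, and the Lac10 arrays lay wholly below the dp12 ones in 3 of the 9 members, Lonrf1 being the third (-0.67, SE 0.30, limma adjusted p = 0.148). That was so for 30.9% of all genes. In that step 421 of 15234 genes passed (2.76%), 381 of them lower (2.50%), and 29.9% of genes and 3 members had an unadjusted p under 0.05. The median of the 9 genes was -0.30 against -0.28 over all genes. With housekeeping centring, which moved the median of all genes by 0.69, Zbtb8a was at -0.70 (adjusted p = 0.082) and Slc35f3 at -0.37 (adjusted p = 0.165), and 246 genes passed, 21 of them lower. With array median centring the adjusted p was 0.0587 for Zbtb8a and 0.0609 for Slc35f3, and with the 6 arrays of the step alone it was 0.111 and 0.122, so the calls of both genes rest on the scaling and on the spread shared over 18 arrays.

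These calls also rest on single arrays. The Zbtb8a call was lost without mutant dp12 replicate 1, 2 or 3 (adjusted p = 0.066, 0.17 and 0.177), mutant Lac10 replicate 2 (0.188), wild-type dp12 replicate 1, 2 or 3 (0.0541, 0.0537 and 0.0573) and wild-type Lac10 replicate 2 or 3 (0.0529 and 0.0504). The Slc35f3 call was lost without the same arrays, with adjusted p between 0.0529 and 0.18, and without wild-type dp18 replicate 2 (0.0506). Without the 2 arrays that went against their stage it was 0.0511 for Slc35f3 and 0.0484 for Zbtb8a. The count over all genes was 0 without mutant dp12 replicate 2, mutant dp12 replicate 3 or mutant Lac10 replicate 2, and 37 without mutant dp12 replicate 1. It was 144, 185 and 153 without wild-type dp12 replicates 1, 2 and 3, 278 without wild-type dp18 replicate 2, and 248 and 230 without wild-type Lac10 replicates 2 and 3. It was higher, at 661, 1647, 2103 and 1549, without mutant dp18 replicate 1, wild-type dp18 replicate 1, and mutant Lac10 replicates 1 and 3.

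**Figure D4:**
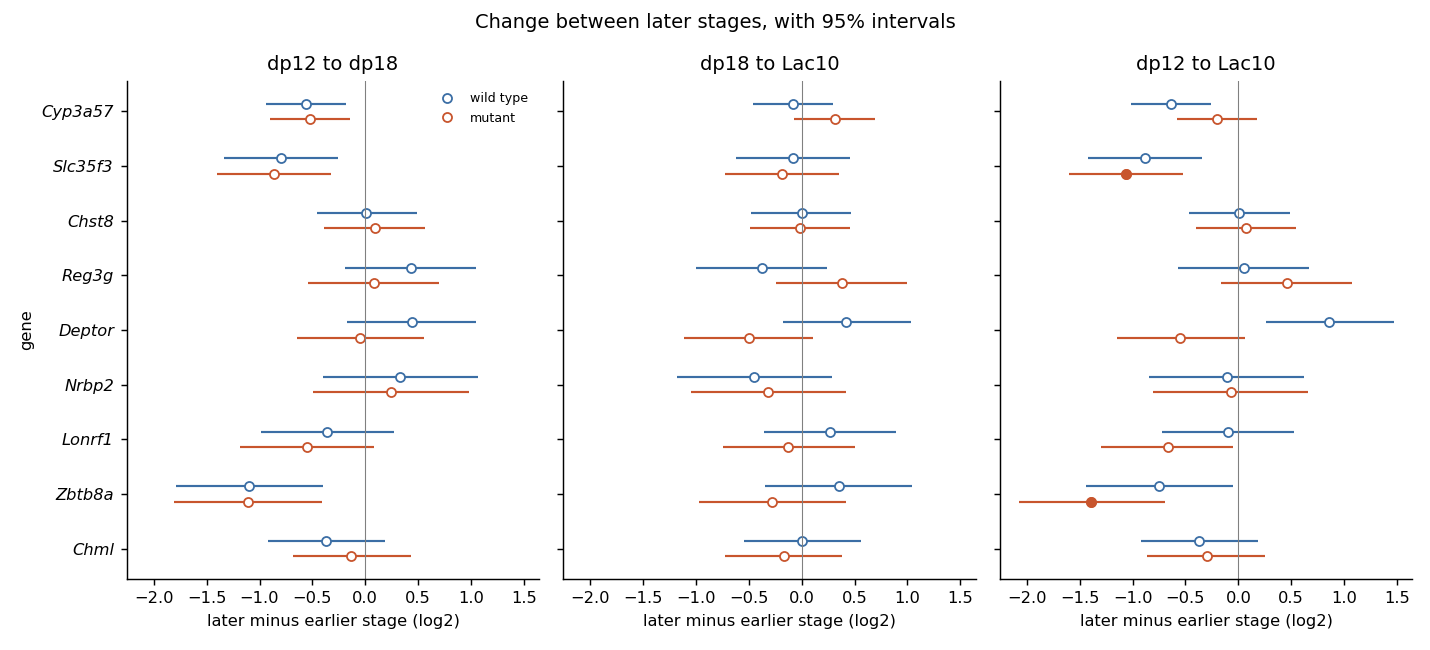
Change between later stages (later minus earlier, log2, horizontal axes) with 95% intervals from limma in wild type (blue) and mutants (red), 3 arrays per group, with a filled point where the adjusted p is under 0.05. The 2 filled points are Slc35f3 (-1.06) and Zbtb8a (-1.39) in mutants from dp12 to Lac10.

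In wild type no member passed in any later step, though the values of Zbtb8a and Slc35f3 pointed the same way. Zbtb8a was at 8.22, 7.70 and 7.91 at dp12, at 6.28, 7.42 and 6.82 at dp18 and at 7.37, 7.32 and 6.89 at Lac10. Slc35f3 was at 6.27, 6.02 and 6.30, then at 4.75, 5.62 and 5.81, and then at 5.40, 5.08 and 5.47. From dp12 to Lac10 they differed by -0.75 (SE 0.33, limma adjusted p = 0.408) and -0.88 (SE 0.25, adjusted p = 0.172), Cyp3a57 by -0.64 (SE 0.18, adjusted p = 0.156) and Deptor by 0.86. Every Lac10 array lay below every dp12 array in 4 of the 9 members and in 23.5% of all genes. In that step 4 genes passed (0.0263%) and 1711 had an unadjusted p under 0.05 (11.2%), 4 of the 9 members among them. With wild-type Lac10 replicate 1 left out the 4 became 373, without mutant Lac10 replicate 3 they became 25, and without any other single later array 1 to 11, with no member among them. Without the 3 arrays of lowest correlation 607 genes passed, 3 members among them, namely Cyp3a57 (adjusted p = 0.0462), Deptor (0.0392) and Slc35f3 (0.0392). Cyp3a57 was in the tested set through the mutant virgin arrays alone, and its later values all lie below the medians of their arrays.

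From dp12 to dp18, the values of Zbtb8a and Slc35f3 were alike in both genotypes. Zbtb8a differed by -1.10 in wild type and -1.11 in mutants, and Slc35f3 by -0.80 and -0.86, with no overlap between stages. In each genotype 3 of the 9 members had every dp18 array below every dp12 array, as did 18.9% of all genes in wild type and 20.6% in mutants. Cyp3a57 differed by -0.56 and -0.52. None passed (limma adjusted p from 0.412 to 0.578), while 1 gene passed in wild type (0.00656%) and 0 in mutants (0%), with 1163 and 1673 genes at an unadjusted p under 0.05 (7.63% and 11.0%), 3 members in each. Nrbp2 was the 1 member whose mutant dp18 arrays all lay above the dp12 ones, at 8.50, 8.83 and 8.65 against 8.41, 8.42 and 8.43 (difference 0.24, SE 0.35), as did 5.49% of all genes. From dp18 to Lac10 no gene passed in either genotype (0%), with 1068 and 381 at an unadjusted p under 0.05 (7.01% and 2.50%), and 0 members among either. With wild-type Lac10 replicate 1 left out, 92 genes passed in wild type and 0 members. Cyp3a57 was the 1 member whose mutant Lac10 arrays all lay above the dp18 ones, as did 1.02% of all genes, with levels of 3.25, 3.34 and 3.24 at dp18 and a difference of 0.31 (SE 0.18, limma adjusted p = 0.996). The moves of Chst8, at levels near the array medians, were at most 0.09 in any later step, with 95% intervals within -0.49 and 0.57.

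The genes most alike in level over the 24 arrays were read off as a description, since all share the same arrays and the virgin arrays drive part of the likeness. Over the 24 arrays Cyp3a57 correlated with Mtmr7 at r = 0.938 and with Pwwp3b at 0.937, Slc35f3 with Zfp664 at 0.911 and Mettl2 at 0.889, and Chst8 with 2010310C07Rik at 0.849 and Mir23a at 0.848. Reg3g correlated with the fibrinogen chain gene Fgb at 0.929 and with Nrxn3 at 0.928. Deptor correlated with Btn1a1, which encodes butyrophilin of the milk fat globule, at 0.876 and with Ggact at 0.836, and Nrbp2 with the contractile genes Cald1 at 0.918 and Tpm1 at 0.878. Lonrf1 correlated with Nkapd1 at 0.923 and Timm29 at 0.909, Zbtb8a with Fntb at 0.915 and Uprt at 0.884, and Chml with Stag1 at 0.886 and Armc8 at 0.884. Over the 18 later arrays alone the r of Cyp3a57 with Mtmr7 was 0.656 and that of Chst8 with 2010310C07Rik 0.382, whereas Zbtb8a with Fntb was at 0.949.

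Among the 9 genes themselves, Slc35f3 and Zbtb8a had the highest r over the 18 later arrays at 0.891, followed by Lonrf1 with Zbtb8a at 0.786 and Slc35f3 with Lonrf1 at 0.710. Reg3g ran against this group, with r of -0.671 with Zbtb8a, -0.668 with Lonrf1 and -0.574 with Slc35f3. Chst8 had r of -0.427 with Deptor and between -0.194 and 0.0706 with the other 7. The 9 genes therefore did not move as a block over the later arrays. Nor did they over all 24 arrays, where r ranged from -0.26 (Cyp3a57 with Deptor) to 0.818 (Slc35f3 with Zbtb8a).

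Pathway partners of the members were looked at by lists. Of 14 measured genes of the mTOR complexes and their regulators, to which DEPTOR binds, 13 had the higher mean in mutant virgins and 4 did not overlap (25.5% over all genes), namely Mtor (0.51), Rictor (0.71), Tsc1 (0.87) and Tsc2 (0.46). The list median was 0.29, against 0.20 over all genes. With that median above 0, most of all genes kept had the higher mean in mutant virgins too. At the later stages none passed for genotype, and the largest averaged differences were those of Rictor and Eif4ebp1, both -0.31 (SE 0.28 and 0.24, limma adjusted p = 0.900). Of 9 measured genes of Rab lipidation and its Rab substrates, the pathway of Chml, all 9 had the higher mean in mutant virgins. Their median was 0.31, again against 0.20 over all genes. Without overlap were 2 of the 9, against 25.5% of all genes. Rabggtb, a subunit of the geranylgeranyl transferase, differed by 1.17 and Rab1a by 0.31 without overlap, while Chm, the other Rab escort gene, differed by 0.52 with overlap. Averaged over the later stages Rabggta was at -0.30 and Rab1a at -0.27 (adjusted p = 0.900).

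The list of Reg family and mucosal defence genes was mixed in virgins. Of its 8 measured genes 6 had the higher mean in mutants. Without overlap, 1 was higher in mutants (25.5% of all genes) and 1 lower. Reg1 was 1.29 lower in mutant than in wild-type virgins (difference -1.29) and Reg3b, which did not pass the filter, was at -0.61, both without overlap, as for 8.64% of all genes with mutants lower. Lcn2, an iron-binding defence protein gene, was 1.09 higher without overlap. The 8 measured genes of this list had a virgin median of 0.22, and later the largest averaged differences were -1.0 for Saa3 (SE 0.72) and -0.60 for Lcn2 (SE 0.23), neither passing (adjusted p = 0.900). Of the Cyp3a family and its receptors only Nr1i3 passed the filter, out of 9 genes on the array, with -0.07 in virgins and 0.00 later. Of 11 measured carbohydrate sulfotransferase genes 4 had the higher mean in mutant virgins, the median was -0.11, none was without overlap, and the largest later differences were -0.13 for Chst14 and 0.12 for Chst5. The 4 measured Slc35f family and thiamine genes had a virgin median of 0.19, with Slc19a2 at -0.35 and Slc35f5 at -0.34 later. Of the paralogs, Lonrf3 was 1.22 higher in mutant virgins without overlap and later at -0.57 (SE 0.21, adjusted p = 0.900), while Nrbp1 was at 0.04 and -0.05. No gene of these lists passed any test among the later stages. Mtor, Tsc1, Tsc2, Rabggtb, Chm, Reg1 and Reg3b were chosen for naming after their values were seen.

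Of the marker lists, 4 genes passed somewhere among the later stages. Tnfsf11, the RANKL gene of hormone-sensing cells, fell by 2.03 in wild type from dp12 to Lac10 (limma adjusted p = 0.00126) and fell by 1.16 in mutants (adjusted p = 0.0269), and it was the gene that passed in wild type from dp12 to dp18. In mutants from dp12 to Lac10 the luminal keratin gene Krt19 fell by 2.03 (adjusted p = 0.0451), while the muscle gene Ckm rose by 0.75 (adjusted p = 0.0423) and Cyp2e1, a cytochrome P450 gene of liver and fat, rose by 3.18 (adjusted p = 0.0451). In the same mutant step in which Zbtb8a and Slc35f3 fell, the luminal marker mean was 10.03 to 10.10 at dp12 and 6.58 to 9.92 at Lac10, and the adipocyte marker mean 6.44 to 6.76 and 6.57 to 9.09. Their part in the 2 falls was not tested.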

How the data were processed

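RNA from 24 samples was hybridised to single-colour arrays. The values are the authors' deposited log2 expression values from RMA, per the submitters' processing notes, with no version or genome build given in the sources used here. RMA sets all arrays to 1 distribution, which hides any change common to most of the transcriptome. The labels' protocols name Trizol extraction of total RNA, while their treatment text describes a PAB-1 pull-down, a conflict not settled here. Titles number the wild-type replicates, and mutant replicates were numbered in accession order.

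Of 41345 probe sets, the platform annotation gives 23521 exactly 1 symbol and 1814 several, and leaves 16010 unnamed. A gene was kept where at least 3 of 24 arrays exceeded their own median, which left 15234 of 22180. All 9 members passed, Cyp3a57 and Reg3g through the mutant virgins alone. The probe sets were 17444682 for Cyp3a57, 17547877 for Deptor (the other is 17311533), 17318312 for Nrbp2, 17430373 for Zbtb8a and 17230174 for Chml, with 1 each for the others. Fold changes were computed here from the deposited log2 values.

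Each gene was fitted with limma 3.58.1 in R 4.3.3 on the 18 dp12, dp18 and Lac10 arrays, with 1 mean per group, 12 residual and 4.05 prior degrees of freedom. Benjamini-Hochberg adjustment ran over 15234 genes with a threshold of 0.05, in 11 comparisons. The fit was tested on simulated data. Wild-type numbers did not pair the arrays (correlations of same-numbered deviations from -0.387 to 0.115). The members, lists and tests were chosen with earlier results of these data known. Genes named are the members, from each list up to 3 that passed or the 2 with the largest averaged genotype difference (from marker lists only those that passed), and for each member the 2 most correlated genes. Alternatives covered the filter, scaling, variance model, array weights, arrays left out and a replicate block. The number of arrays limits the precision. Promoter sequences and gene overlaps are from RefSeq, build GRCm38.p6, and no gene coordinates of the arrays' own build were used.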

Additional observations from a re-analysis of the deposited data

Results flagged for a closer look

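Several genotype differences had opposite signs at different stages, with every mutant array on 1 side of every wild-type array each time. For Deptor the difference was 1.53 in virgins and -0.74 at Lac10, for Lonrf1 1.35 and -0.64, for Zbtb8a 1.64 and -0.71, and for Nrbp2 1.57 in virgins and -0.32 at dp12. These differences between virgins and later stages were not tested, because the virgin arrays chose the genes. For Deptor the difference was also 0.67 at dp12 against -0.74 at Lac10, and the limma test of equal differences over dp12, dp18 and Lac10 gave an unadjusted p of 0.00957 and an adjusted p of 1. At Lac10 every mutant array lay below every wild-type array for 12.4% of all genes, and at dp12 for 10.2%.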

How the results depend on the processing

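Over the alternatives other than leaving out 1 array, 185 counts of genes or members stayed within 1.5 times their value and 48 did not, while for single members 466 values kept direction and call, 1 moved by more than the replicate spread, 22 changed sign, 14 passed where they had not and 7 no longer passed. With array weights, whose estimate did not reach its convergence tolerance, the counts were 111 at dp12, 3402 at Lac10, 641 averaged and 1262 for unequal differences, with 1 member in each, 2192 (4 members) and 3612 (2 members) for wild type from dp12 to dp18 and from dp18 to Lac10, and 6533 and 4567 (4 members each) for wild type and mutants from dp12 to Lac10. With all 24 arrays they were 36 for genotype at Lac10, and 0, 9 and 1414 for wild type dp12 to dp18, wild type dp12 to Lac10 and mutant dp12 to Lac10. For the last 3 they were 0, 1 and 246 (0 members) with housekeeping centring, and array median centring gave 2 and 172 (0 members) for both steps from dp12 to Lac10. The variance trend gave 23 for wild type dp12 to Lac10. Without the 3 arrays of lowest correlation the same 3 steps gave 0, 607 (3 members) and 851.

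The other alternatives were chosen after seeing the data. Without the 2 arrays at odds with their stage, 1, 1 and 116 genes passed for genotype at dp12, dp18 and Lac10, 3 averaged, 1 for unequal differences, and 0, 88 and 358 for wild type dp12 to dp18, dp18 to Lac10 and dp12 to Lac10, and 1 member in mutants from dp12 to Lac10. With the groups of each comparison alone, 6 passed at dp12, 0 and 49 in wild type from dp12 to dp18 and to Lac10, and 1 (0 members) in mutants from dp12 to Lac10.

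Wild-type numbers as a replicate block, on wild-type arrays alone, gave 0 for dp12 to dp18 against 1 and 9 for dp12 to Lac10 against 4. The same-numbered arrays did not deviate together, so they share only a number.

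Signs turned mostly for differences near 0. With housekeeping centring the dp18 difference was 0.00 for Chml, -0.20 for Chst8, -0.04 for Deptor and -0.16 for Reg3g, the Lac10 difference 0.32 for Nrbp2 and 0.38 for Slc35f3, and the mutant step from dp12 to Lac10 0.01 for Lonrf1. With array median centring it was -0.05 for Chml and -0.08 for Chst8 at Lac10, and -0.02 for Chst8 averaged. With array weights it was -0.19 for Chst8 and 0.08 for Cyp3a57 at dp18, -0.05, -0.09 and 0.08 for Chml, Chst8 and Nrbp2 at Lac10, and -0.11 for Chst8 averaged. With the 3 arrays of lowest correlation left out it was -0.26, -0.12 and -0.14 for Chst8 at dp18, at Lac10 and averaged, and 0.19 for Nrbp2 at Lac10. Without the 2 arrays at odds with their stage it was -0.05 for Chml at dp18 and -0.02 for Chst8 at Lac10. For all of these the cause was not tested.

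Leaving out each of the 18 arrays in turn gave counts of 0 to 595 at Lac10, 0 to 2 averaged, 0 to 8 for unequal differences, 0 to 1 for wild type dp12 to dp18 and for mutants from dp12 to dp18 and dp18 to Lac10, 0 to 92 and 1 to 373 for wild type dp18 to Lac10 and dp12 to Lac10, and 0 to 2103 (0 to 2 members) for mutants from dp12 to Lac10. Differences whose sign turned ranged at dp12 from -0.09 to 0.05 for Chml, -0.19 to 0.04 for Cyp3a57, -0.15 to 0.04 for Lonrf1, -0.13 to 0.10 for Slc35f3 and -0.19 to 0.10 for Zbtb8a. At dp18 they ranged from -0.05 to 0.43 for Chml, -0.16 to 0.24 for Chst8, -0.03 to 0.34 for Deptor, -0.59 to 0.06 for Lonrf1, -0.14 to 0.39 for Reg3g, -0.42 to 0.11 for Slc35f3 and -0.36 to 0.21 for Zbtb8a. At Lac10 they ranged from -0.10 to 0.17 for Chml, -0.12 to 0.17 for Chst8 and -0.58 to 0.19 for Nrbp2, and averaged from 0.00 to 0.16 for Chml, -0.06 to 0.07 for Chst8 and -0.05 to 0.16 for Deptor. Cyp3a57 and Reg3g lay below the median of every later array and Chst8 near it, where the arrays read small differences least well.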
